A study of Mus musculus with 24 samples.

Results

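Hearts of wild-type mice were compared with bones of wild-type mice on Illumina mouse bead arrays, to describe which genes separate the tissues when the genotype is held the same. The heart group held 3 arrays, wild-type heart 1 to 3, and the bone group held 4, wild-type bone 1 to 4, chosen by sample title among the 24 arrays of the series. The series as a whole set mice heterozygous for a mutagen-induced allele of Ednra, the endothelin receptor type A gene (spelled Endra in the sample labels), against wild-type mice in heart, bone and white fat. Animals in both groups were C3HeB/FeJ males aged 117 days and wild type for that allele, the labels give no treatment, and each of the 7 arrays used carries its own mouse number. Hearts and bones came from different animals, so tissue and animal cannot be told apart, and slide positions are not known here. The labels do not say which bone was taken or whether marrow and attached muscle were removed.

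A 4th wild-type heart array was left out by the rule that defines the groups. Of 10255 probes detected on each of the 7 other heart arrays of the series, 1575 (15.4%) were not detected on it. For each of the 3 arrays used, with the 4th left aside, 60 to 82 probes detected on all other heart arrays were not detected. Probes detected numbered 11467 to 11933 on the 3 heart arrays and 13468 to 13802 on the 4 bone arrays, and mean raw intensity was 368 to 418 in heart and 569 to 625 in bone. Bone arrays were thus brighter, so brightness and tissue cannot be told apart. Pearson correlation of log2 levels was 0.991 to 0.994 between heart arrays, 0.988 to 0.994 between bone arrays, and 0.694 to 0.721 across the tissues.

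Heart muscle is a tissue of cardiomyocytes, which contract without rest, draw most of their energy from mitochondrial oxidation of fatty acids, and use their own isoforms of the contractile and calcium-handling proteins. Fibroblasts, endothelial cells, pericytes and a covering mesothelium, the epicardium, make up the rest of the organ. Bone holds osteoblasts that lay down mineralised matrix, osteocytes buried in it, osteoclasts that resorb it and, at its ends, cartilage; its cavity holds marrow, where red cells, granulocytes, platelets and B cells are made. In RNA from whole tissue, fewer cells of a type and less RNA per cell cannot be told apart.

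Values below are normalised log2 intensities ("log2 levels"), and differences are heart minus bone on the log2 scale, so that 1 is a 2-fold difference. A gene was measured by its brightest probe among those with a detection p under 0.05 on at least 3 arrays of either tissue, and limma gave p-values adjusted by the Benjamini-Hochberg method over the 9621 genes measured. At an adjusted p under 0.05, 7940 genes (82.5%) differed, 4251 (44.2%) higher and 3689 (38.3%) lower in heart. In a test against a 2-fold difference (limma's treat), 3205 genes (33.3%) were called, 1661 (17.3%) higher and 1544 (16.0%) lower in heart. Median scaling in place of quantile normalisation lowered the median difference over all genes by 0.28, to -0.18, against 0.10 here, and only 42.6% of the called genes were then higher in heart, against 53.5% here, or 39.4% against 51.8% past the 2-fold test. The authors' normalised intensities moved the balance the other way: the median difference was 0.36, 61.7% of the called genes were higher in heart and 60.3% of those past the 2-fold test. The sign of small differences thus depended on the scaling. Heart and bone levels did not overlap for 7768 genes (80.7%), with heart above bone in 4182 (43.5%) and below it in 3586 (37.3%).

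Wide differences were more often lower in heart. A fitted difference of 5 or more was reached by 26 genes higher in heart and by 120 genes lower in heart. Absence was asked of 4 bone arrays but only 3 heart arrays, so the counts of undetected genes are not on equal terms. Among the 9621 genes, 273 (2.84%) had every probe undetected on all 4 bone arrays, and 1060 (11.0%) had every probe undetected on all 3 heart arrays. Such a gene is written "at least N-fold", which sets the brighter tissue's mean against the lowest signal of any detected probe on the dim arrays (log2 level 4.81 to 5.27) or the gene's own level there if higher. These folds hold for the background correction used here: for all 54 genes named below that have such a bound, the fitted difference was under the stated bound without background correction (by a median of 1.86 on the log2 scale) and with an offset of 50 (by a median of 0.65). For Nppa, with a bound of 9.79 on the log2 scale, the fitted difference was 7.49 without background correction and 8.80 with an offset of 50. Such a gene passed the filter through 1 tissue alone and had to differ, so counts over lists describe what was measured, and each is to be read against the 44.2% of all genes called higher and the 38.3% called lower in heart.

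**Figure D1:**
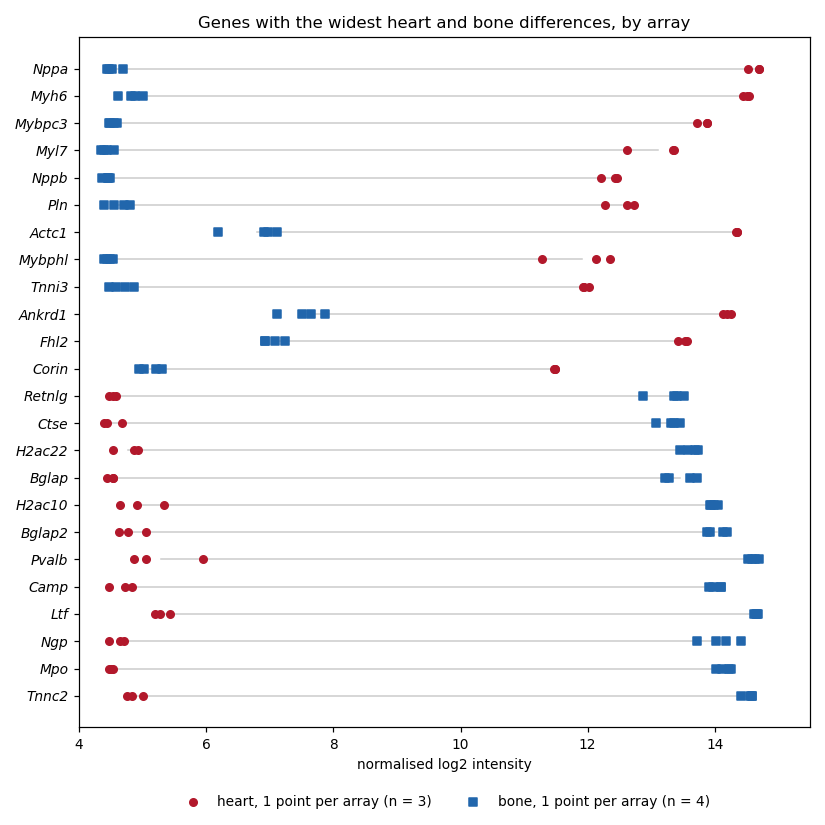
Normalised log2 intensity of the 12 genes per direction with the widest difference, 1 point per array, with heart as circles (n = 3) and bone as squares (n = 4); grey lines join the group means. Points of a group lie close together while the group means stand apart by 6.37 or more on the log2 scale in the upper 12 genes and by 8.07 or more in the lower 12, with undetected genes at their bound.

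The regulatory sequences upstream of 5 genes are shown first, because each gene stands for a tissue program that separated the groups: Actc1 for the heart sarcomere, Nppb for the natriuretic peptides, Mylpf for fast skeletal muscle, Alas2 for red cell heme synthesis and Bglap for mineralising osteoblasts. Each run is the 250 bases before the start site in RefSeq's table (build GRCm38.p6), written 5′ to 3′ on the gene's strand, and capitals mark the motif match named before the colon.
Actc1 (chr2:114052876-114053125, minus strand), serum response element of the CArG type: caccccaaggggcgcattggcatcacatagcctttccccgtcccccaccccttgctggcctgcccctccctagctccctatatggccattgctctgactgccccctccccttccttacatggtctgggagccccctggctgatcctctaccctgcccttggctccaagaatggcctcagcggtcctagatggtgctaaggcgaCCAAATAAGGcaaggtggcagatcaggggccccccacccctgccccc
Nppb (chr4:147985650-147985899, plus strand), GATA element: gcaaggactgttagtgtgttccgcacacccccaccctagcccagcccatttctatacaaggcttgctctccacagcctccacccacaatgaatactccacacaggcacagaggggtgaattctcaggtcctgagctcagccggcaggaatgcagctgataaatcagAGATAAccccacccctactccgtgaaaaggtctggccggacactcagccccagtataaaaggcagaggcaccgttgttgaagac
Mylpf (chr7:127211358-127211607, plus strand), E-box: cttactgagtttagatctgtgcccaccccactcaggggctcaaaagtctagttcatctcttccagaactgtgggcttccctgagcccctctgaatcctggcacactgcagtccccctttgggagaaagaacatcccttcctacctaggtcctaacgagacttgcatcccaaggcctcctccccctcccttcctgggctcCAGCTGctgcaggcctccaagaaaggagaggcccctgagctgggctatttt
Alas2 (chrX:150547167-150547416, plus strand), GATA element on the other strand: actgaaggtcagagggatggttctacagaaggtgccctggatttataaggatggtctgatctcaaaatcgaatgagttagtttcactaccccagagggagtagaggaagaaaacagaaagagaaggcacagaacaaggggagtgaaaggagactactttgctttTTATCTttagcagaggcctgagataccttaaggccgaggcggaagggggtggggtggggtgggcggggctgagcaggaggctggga
Bglap (chr3:88384467-88384716, minus strand), RUNX element on the other strand: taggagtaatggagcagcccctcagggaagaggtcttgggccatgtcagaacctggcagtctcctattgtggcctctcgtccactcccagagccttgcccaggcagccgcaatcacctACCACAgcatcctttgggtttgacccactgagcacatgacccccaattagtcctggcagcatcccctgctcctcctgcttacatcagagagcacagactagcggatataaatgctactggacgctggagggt

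These elements are known binding motifs: CArG boxes for serum response factor, AGATAA for GATA factors, CAGCTG for myogenic E-box factors and TGTGGT for RUNX factors; both strands were searched, and none of the 4 contains another. The capitals begin 47 bases before the start site in Actc1, 84 in Nppb, 51 in Mylpf, 86 in Alas2 and 132 in Bglap. Over windows of 300 bases (250 before to 50 after the start), AGATAA on either strand stood in 8 of 18 promoters of the red cell list (44.4%). It stood in 11.2% of all 32851 promoters in the table and 6.59% of those of genes measured here. The motif was not particular to red cell genes: platelet-lineage promoters held it in 30.8%, neutrophil ones in 20% and cardiomyocyte ones in 20%. Skeletal muscle promoters held it in 9.52%, respiratory chain ones in 7.81% and osteoblast ones in 0%. CAGCTG stood in 12 of 21 promoters of the skeletal muscle list (57.1%) and in 9 of 25 promoters of the cardiomyocyte list (36%), against 16.3% of all promoters. The CArG motif stood in 3 of 25 cardiomyocyte promoters (12%), against 1.63% of all promoters. TGTGGT stood in 2 of 14 osteoblast promoters (14.3%), against 16.8% of all. Among genes past the 2-fold test, AGATAA stood in 6.63% of promoters of genes higher in heart and in 7.69% of those lower in heart, and CAGCTG in 17.5% of the higher and 15.4% of the lower. A match describes letters in a window and says nothing of binding.

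Contractile and hormone genes of the heart gave the widest differences in the heart direction. Of 26 cardiomyocyte markers, 23 were measured and all 23 were higher in heart (44.2% of all genes were), with a median difference of 4.40 (4.13 with undetected genes at their bound), against 0.10 over all genes. Every probe of 9 of them was undetected in bone, and the transcription factor genes Tbx5 and Tbx20 did not pass the detection filter. Nppa, the atrial natriuretic peptide, had log2 levels of 14.69, 14.69 and 14.53 in heart, against 4.52, 4.44, 4.47 and 4.70 in bone. It was undetected on every bone array and at least 888-fold higher in heart by the background correction used (adjusted p = 3.9e-15). Nppb, the related ventricular peptide, had 12.44, 12.21 and 12.46 in heart, against 4.49, 4.45, 4.46 and 4.36 in bone, at least 185-fold higher. Corin, the protease that cuts the Nppa precursor, gave 11.49, 11.48 and 11.49 in heart, against 5.30, 5.02, 5.21 and 4.94 in bone, a difference of 6.37 ± 0.11 (SE). Receptors of the natriuretic peptide family were higher in heart by less: Npr3, the clearance receptor, by 3.24 ± 0.16, and Npr2, the receptor for the C-type peptide, by 1.85 ± 0.12.

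Myh6, the fast cardiac myosin heavy chain, had log2 levels of 14.44, 14.54 and 14.50 in heart, against 4.82, 5.01, 4.61 and 4.88 in bone, where it was detected on 2 of 4 arrays. Its difference of 9.66 ± 0.10 was 6.08 by a second probe. Mybpc3, cardiac myosin binding protein C, had 13.88, 13.87 and 13.72 in heart, against 4.59, 4.47, 4.49 and 4.55 in bone, at least 506-fold higher. Myl7, the atrial regulatory light chain, was lowest on heart array 3, with 13.34, 13.35 and 12.61 in heart, against 4.44, 4.55, 4.38 and 4.35 in bone. The same array was lowest for Mybphl, a myosin binding protein of atrium and conduction tissue, with 12.35, 12.13 and 11.27 in heart, against 4.54, 4.48, 4.44 and 4.39 in bone. Actc1, cardiac alpha-actin, was 14.33, 14.35 and 14.35 in heart, against 6.91, 6.98, 6.18 and 7.11 in bone, and Tnni3, cardiac troponin I, was 11.93, 11.93 and 12.02 in heart, against 4.72, 4.47, 4.59 and 4.87 in bone. Ankrd1 and Fhl2, which bind titin and respond to stretch, differed by 6.66 ± 0.14 and 6.46 ± 0.09. Of 32 sarcomere genes measured, 24 were higher and 5 lower in heart, with a median of 2.96. Those 5 included Myot, by a probe undetected in heart, and Ldb3 (-3.02), both of the Z-disc, and Pdlim5 (-2.35), whose probes disagreed: the others gave -0.02, 2.27 and -3.84, and the brightest gave -1.70 without heart array 1.

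Calcium-store genes split by isoform. Pln, phospholamban, the brake on the cardiac calcium pump, had log2 levels of 12.62, 12.28 and 12.73 in heart, against 4.71, 4.80, 4.55 and 4.40 in bone, at least 208-fold higher. Casq2, the cardiac calsequestrin that buffers calcium in the store, was higher by 5.93 ± 0.17, while Casq1, its skeletal counterpart, was undetected in heart and at least 6.6-fold lower there. Sln, sarcolipin, a small inhibitor of the pump in atrium and slow muscle, was higher by 5.21 ± 0.31. Atp2a1, the fast skeletal calcium pump, was 7.33, 7.07 and 5.79 in heart, against 14.30, 14.26, 14.21 and 14.29 in bone, and Atp2a3, a pump of blood and endothelial cells, was lower in heart by 4.09 ± 0.08. In all, 12 of 24 measured calcium-store genes were higher (50%) and 10 lower (41.7%) in heart, near the 44.2% and 38.3% of all genes.

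Genes of electrical coupling and of the membrane skeleton were mostly higher in heart. Of 22 excitation and conduction genes, 19 were higher and 1 lower, with a median of 2.96. Kcnk3, a background potassium channel, had log2 levels of 9.63, 10.16 and 10.42 in heart, against 4.69, 4.47, 4.50 and 4.65 in bone, at least 37.5-fold higher. Slc8a1, the sodium-calcium exchanger, was 11.29, 11.33 and 11.46 in heart, against 6.50, 6.51, 6.90 and 6.80 in bone. Kcnh2, the channel of the rapid repolarising current, was undetected in bone and at least 15.7-fold higher in heart, and Popdc2, a membrane protein of pacemaker and working myocardium, differed by 4.03 ± 0.09. The gene lower in heart was Cacna2d1 (-2.95 ± 0.20), a calcium channel subunit that skeletal muscle also uses. Among 17 genes of the intercalated disc and costamere, 13 were higher and 4 lower. Pkp2, plakophilin 2 of the desmosome, was 11.94, 11.59 and 11.68 in heart, against 5.64, 5.77, 5.68 and 5.61 in bone, and its other probes gave 5.13 and 6.16, near the 6.06 of the brightest. Itgb1bp2, melusin, and Itga7, the muscle laminin receptor subunit, were higher by 3.93 and 3.24. The 4 lower in heart included Dag1 (-2.22), Synm (-2.21) and Vcl (-1.17), which code for dystroglycan, synemin and vinculin; Synm was at -4.45 by its other probe and at -4.56 with all 24 arrays normalised together.

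Transcription factor genes of the heart followed. Of 17 measured, 14 were higher and 1 lower in heart, with a median of 2.13, and 6 had every probe undetected in bone. Gata6 had log2 levels of 10.17, 10.24 and 10.25 in heart, against 4.40, 4.73, 4.60 and 4.63 in bone, at least 41.6-fold higher. Prox1, at least 18.8-fold, Nkx2-5, at least 17.4-fold, and Irx4, a ventricular homeobox factor, at least 13.1-fold, were likewise undetected in bone. The gene lower in heart was Mef2c, which acts in cardiac and skeletal muscle and in B cells, bone and cartilage. Its levels were 7.15, 7.21 and 6.83 in heart, against 10.89, 11.03, 10.42 and 10.79 in bone, and its other probes gave -4.65 and -3.84, beside -3.72 by the brightest.

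Mitochondrial energy genes were mostly higher in heart. Of 29 fatty acid oxidation genes measured, 26 were higher and 1 lower by their brightest probes, with a median of 2.04. Probes of some members disagreed in sign. Acaa2 gave 2.63 by its brightest probe and -3.28, -2.85 and -3.36 by others. Acadm gave 1.80 by its brightest probe and -2.21 by another. The direction of Acaa2 and Acadm is therefore unsettled. Etfdh, which passes electrons of fatty acid oxidation to ubiquinone, had log2 levels of 12.01, 12.22 and 12.12 in heart, against 9.05, 8.97, 8.97 and 8.91 in bone. Slc27a1, a fatty acid importer, differed by 3.11 ± 0.13, Acadvl, the first dehydrogenase for very long chains, by 2.78 ± 0.07, and Eci1, an isomerase for unsaturated chains, by 2.69 ± 0.08. Acads, the short-chain dehydrogenase, differed by 3.04 ± 0.10, but by 0.67 by another probe. Angptl4, a secreted inhibitor of lipoprotein lipase, was the gene lower in heart (-0.44 ± 0.13), and its call was lost with the authors' normalised intensities (-0.090, limma adjusted p = 0.564). In the citric acid cycle and its pyruvate entry, 23 of 24 genes were higher and none lower in heart. Pdk2, a kinase that holds pyruvate dehydrogenase back, was 10.16, 10.17 and 9.80 in heart, against 5.50, 5.31, 5.25 and 5.39 in bone. Ogdh, the oxoglutarate dehydrogenase subunit, was 12.47, 12.41 and 12.44 in heart, against 9.02, 9.07, 8.86 and 9.11 in bone, and Idh2 and Got1 were each higher by 2.91.

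Of 70 respiratory chain and ATP synthase subunits, 67 were higher and 1 lower in heart, with a median of 1.47 and 49 past the 2-fold test. Cox4i2, the oxygen-tuned form of cytochrome oxidase subunit 4, had log2 levels of 8.99, 9.09 and 9.16 in heart, against 5.39, 5.08, 5.04 and 5.27 in bone. Ndufb7 of complex I differed by 2.91 ± 0.11, Cox7a1, the muscle form of subunit 7a, by 2.81 ± 0.11, and Sdhb of complex II by 2.54 ± 0.08. Cox6a1, the common form of subunit 6a, was the gene lower in heart (-0.39 ± 0.09, but 0.23 with the authors' normalised intensities), while its muscle form Cox6a2 was higher by 1.15 ± 0.08. Under each of 7 other scalings the medians of these 3 groups stayed above 0.

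Of 28 sugar-handling genes, 16 were higher (57.1%) and 10 lower (35.7%) in heart, beside 44.2% and 38.3% of all genes, with a median of 0.38. Pygb, brain-type glycogen phosphorylase, was 12.49, 12.58 and 12.45 in heart, against 7.79, 8.03, 8.06 and 8.18 in bone, and Pfkfb2, the cardiac form of the enzyme that makes the phosphofructokinase activator, was higher by 3.21 ± 0.11. On the other side, Hk3, a hexokinase of white blood cells, was 5.14, 5.22 and 5.26 in heart, against 10.29, 9.94, 10.10 and 10.19 in bone, and Slc2a3, a high-affinity glucose transporter, was 6.40, 6.20 and 6.21 in heart, against 11.16, 11.11, 11.01 and 11.03 in bone. Pfkfb4, a further form of that enzyme, was lower by 3.14 ± 0.10.

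Genes of the heart's supporting cells had smaller median differences than cardiomyocyte genes (4.40). All 7 epicardial genes measured were higher in heart, with a median of 2.27. Wt1, an epicardial transcription factor, was undetected in bone and at least 12.6-fold higher in heart. Upk3b, a mesothelial membrane protein, had log2 levels of 10.18, 9.53 and 9.06 in heart, with an SD of 0.56 among hearts, against 4.56, 4.64, 4.76 and 4.73 in bone. Among 18 endothelial genes, 14 were higher and 4 lower. Cdh5, the endothelial cadherin, was higher by 2.76 ± 0.13 and the receptor gene Tek by 2.18 ± 0.11, while Aqp1, the water channel that red cells also carry, and Vwf, which platelets also store, were lower in heart by 1.80 ± 0.08 and 1.49 ± 0.13. Of 13 smooth muscle and pericyte genes, 10 were higher and 2 lower; Myocd, a cofactor of smooth and cardiac muscle, led at 3.01 ± 0.11, and Rgs5, a pericyte G protein regulator, was 4.51, 5.55 and 4.69 in heart, against 9.18, 9.23, 8.84 and 9.35 in bone. Of 14 fibroblast genes, 7 were higher and 7 lower (50% each, beside 44.2% and 38.3% of all genes). Tcf21, a cardiac fibroblast transcription factor, was undetected in bone and at least 15.9-fold higher in heart, and Dpt was higher by 2.86 ± 0.24, whereas Col1a2 and Col1a1, the chains of type I collagen that osteoblasts secrete in bulk, were lower. Of 6 nerve and Schwann cell genes, 4 were higher and 2 lower in heart. Dbh, the enzyme that makes noradrenaline, and Stmn2, a neuronal growth protein, were higher by at least 7.25-fold and by 2.56 ± 0.14. The 2 lower were the myelin genes Mbp (-2.59 ± 0.14, but -0.29 and 0.51 by its other probes) and Cnp (-1.79 ± 0.11, and -0.76 by its other probe).

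**Figure D2:**
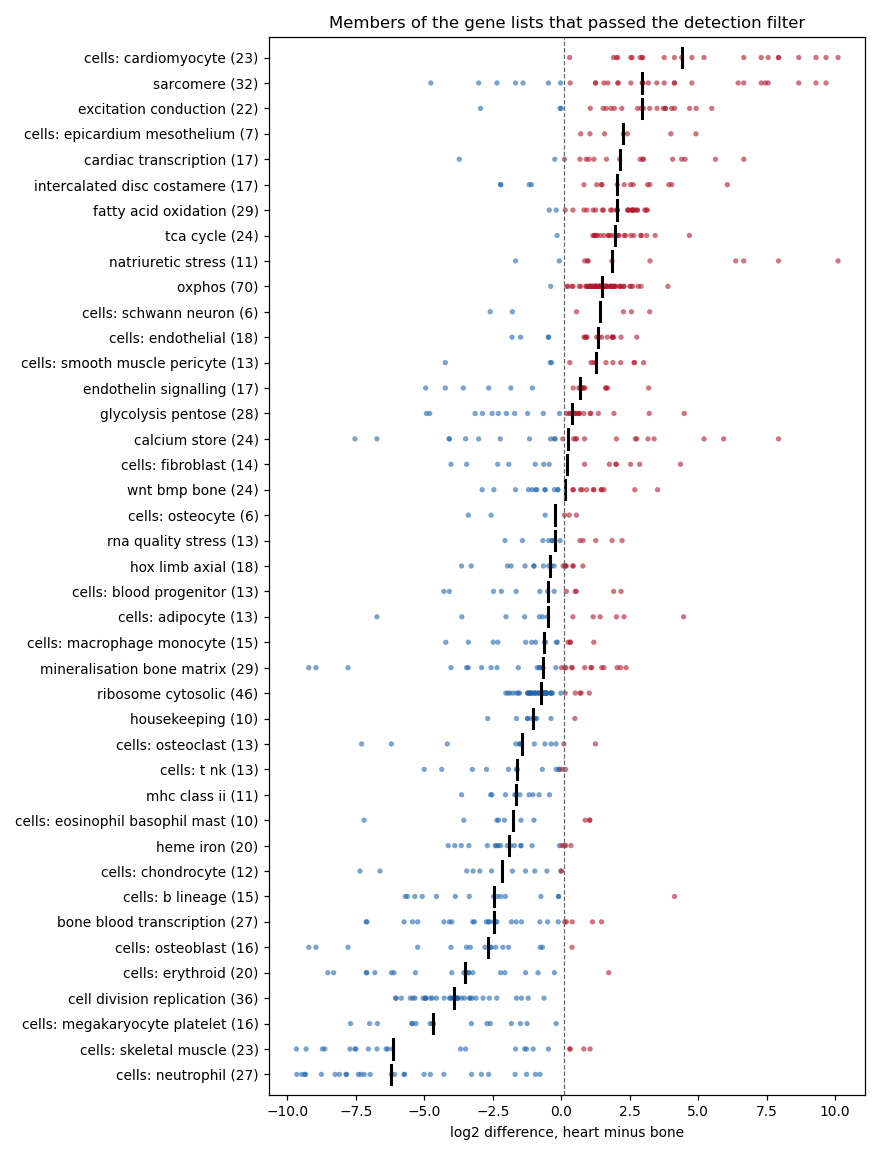
Log2 difference (heart minus bone) of each member that passed the detection filter, 1 point per gene, for 41 gene lists with the number of members in brackets; the black bar is the list median and the dashed line the median over all 9621 genes (0.10). Medians run between 4.40 for cardiomyocyte genes at the top and -6.20 for neutrophil genes at the bottom.

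Matrix-forming cells marked the bone samples. Of 16 osteoblast genes measured, 15 were lower and 1 higher in heart (38.3% of all genes were lower), with a median of -2.68 (-2.30 at bounds), and 10 had every probe undetected in heart. Bglap2 and Bglap, neighbouring near-identical genes for osteocalcin, the calcium-binding protein of bone matrix, cannot be fully separated by an array probe. Bglap2 had log2 levels of 4.76, 4.63 and 5.06 in heart, against 13.88, 14.19, 14.14 and 13.93 in bone, at least 450-fold lower in heart, and Bglap was at least 301-fold lower, with its other probes at -0.69 and -8.57 beside the brightest one's -8.96. Ibsp, bone sialoprotein, had 4.43, 4.41 and 4.64 in heart, against 11.86, 12.51, 12.27 and 12.47 in bone. Sp7, the transcription factor that commits cells to the osteoblast line, had 4.50, 4.55 and 4.43 in heart, against 9.49, 9.89, 9.75 and 9.81 in bone, at least 22.8-fold lower. Col1a1 was lower by 3.46 ± 0.11. Smpd3, a sphingomyelinase needed for mineralisation, was the gene higher in heart (0.39 ± 0.13, but -0.016 with median scaling), and its call was lost without heart array 2 (0.32, limma adjusted p = 0.0544). The wider list of matrix and mineralisation genes was more mixed. Of 29 measured, 15 were lower (51.7%) and 10 higher (34.5%) in heart, with a median of -0.67. Over all genes 38.3% were lower and 44.2% higher.

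Few osteocyte genes were measured. The defining genes Dmp1, Sost and Fgf23 did not pass the filter in either tissue, and of the 6 that did, 3 were lower (50%) and 2 higher in heart, with 38.3% of all genes lower. Phex, an osteocyte peptidase of phosphate balance, was at least 7.42-fold lower. Mepe, a matrix phosphoprotein, was 4.81, 5.10 and 4.70 in heart, against 8.12, 6.50, 7.85 and 7.24 in bone, at least 4.62-fold lower in heart.

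Cartilage genes varied between bones. Of 12 measured, 10 were lower and none higher in heart. Col2a1, the collagen of cartilage, had 4.91, 4.63 and 4.94 in heart, against 11.37, 12.54, 12.35 and 12.46 in bone, and Chad, a cartilage leucine-rich protein, had 5.31, 5.13 and 5.37 in heart, against 11.29, 11.99, 12.07 and 12.20 in bone. Col10a1, the collagen of hypertrophic cartilage, was 4.65, 4.47 and 4.50 in heart, against 5.86, 8.09, 8.28 and 7.82 in bone. Bone array 1 was the lowest of the 4 for these 3 genes, and the summed linear level of the list was 825 to 1129 on the heart arrays, against 6733 on bone array 1 and 12171 to 13185 on the other 3 bone arrays.

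Of 13 osteoclast genes, 10 were lower and 1 higher in heart. Car2, the carbonic anhydrase that supplies acid and that red cells also carry, had log2 levels of 5.50, 5.13 and 4.83 in heart, against 12.54, 12.37, 12.71 and 12.15 in bone. Mmp9, a gelatinase shared with neutrophils, had 6.05, 5.71 and 6.07 in heart, against 12.08, 12.14, 12.21 and 12.17 in bone. Ctsk, the collagen-cutting protease of osteoclasts, was lower by 4.16 ± 0.09 and Tcirg1, a proton pump subunit, by 1.66 ± 0.16. Clcn7, the chloride exchanger that works with the pump, was the gene higher in heart (1.25 ± 0.12). Calcr, Ocstamp and Atp6v0d2 did not pass the filter.

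Granulocyte genes were among those with the widest differences lower in heart. All 27 neutrophil genes measured were lower, with a median of -6.20, and 19 had every probe undetected in heart. Mpo, the peroxidase of primary granules, had log2 levels of 4.50, 4.47 and 4.53 in heart, against 14.22, 14.02, 14.11 and 14.26 in bone, at least 489-fold lower in heart. Of the secondary granule genes, Ngp was 4.47, 4.71 and 4.64 in heart, against 14.01, 13.72, 14.41 and 14.18 in bone, Camp, the cathelicidin, 4.83, 4.72 and 4.47 in heart, against 14.10, 13.98, 13.90 and 14.09 in bone, and Ltf, lactoferrin, 5.43, 5.19 and 5.27 in heart, against 14.68, 14.62, 14.65 and 14.66 in bone. Ltf was detected on 2 of 3 hearts. S100a9, a subunit of calprotectin, was detected on every heart array, at 6.06, 6.09 and 5.37 in heart, against 14.09, 14.15, 14.01 and 14.14 in bone.

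Eosinophil granule genes separated the bones from each other. Prg2, the major basic protein, had 4.63, 4.45 and 4.73 in heart, against 13.72, 8.67, 13.71 and 11.11 in bone, an SD of 2.42 among bones. Ear6, Epx and Prg3, further granule proteins, had the same order: bone arrays 1 and 3 were high, array 4 was lower and array 2 was lowest. Ear6 was 4.60, 4.50 and 4.46 in heart, against 10.35, 4.70, 10.57 and 6.68 in bone, where array 2 lay close to the hearts. Prg2 was at least 95.6-fold lower in heart, Ear6 at least 7.23-fold, Epx at least 3.21-fold and Prg3 at least 2.91-fold, with limma adjusted p-values of 2.1e-05 to 0.0121. With the authors' normalised intensities, Ear6, Epx and Prg3 did not pass the test (adjusted p = 0.0724, 0.0631 and 0.162). The fitted Prg2 difference of -7.20 was -6.55 without bone array 1, -8.23 without bone array 2 and -6.54 without bone array 3, that of Ear6 moved to -4.62, against -3.56 with all arrays, without bone array 2, and that of Prg3 to -1.75, against -2.35, without bone array 3. The summed linear level of the eosinophil, basophil and mast cell list was 389 to 440 on heart arrays and 15946, 884, 16265 and 2933 on bone arrays 1 to 4. The mast cell protease genes Mcpt4 and Tpsb2 were dim, detected on 2 and 1 of the 4 bone arrays, and higher in heart by 1.04 and 1.03 (0.30 and 0.29 without background correction). Cma1, a further one, was called higher in heart by a probe undetected in bone, and lost its call with no detection filter (limma adjusted p = 0.0529).

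**Figure D3:**
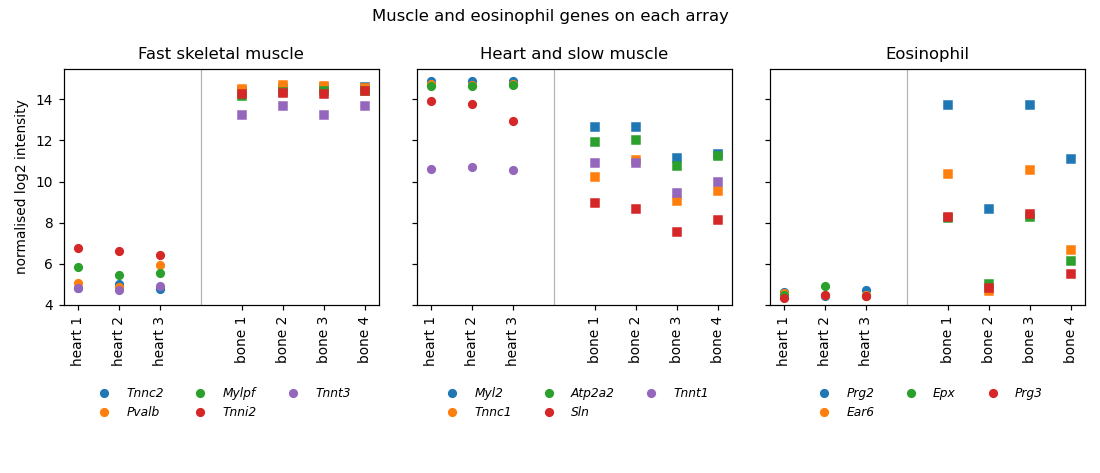
Normalised log2 intensity on each array (heart 1 to 3 on the left of each panel, bone 1 to 4 on the right) of 5 fast skeletal muscle genes, 5 genes of heart and slow muscle, and 4 eosinophil genes. The fast genes lie at 13.25 to 14.69 in bone, where the ceiling is 14.90, the heart and slow genes are higher on bone arrays 1 and 2 than on 3 and 4, and the eosinophil genes are highest on bone arrays 1 and 3.

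Red cell genes were mostly lower in heart. Of 20 measured, 19 were lower and 1 higher, with a median of -3.52. Slc4a1, the anion exchanger of the red cell membrane, had log2 levels of 6.39, 5.85 and 5.99 in heart, against 14.61, 14.56, 14.62 and 14.60 in bone. Trim10 was undetected in heart and at least 219-fold lower there, and Klf1, the erythroid master transcription factor, was lower by 7.10 ± 0.14. Alas2, the first enzyme of heme synthesis in red cells, was detected in every heart, at 11.09, 10.20 and 10.42 in heart, against 13.92, 14.10, 13.87 and 13.89 in bone. Sptb, a spectrin that heart muscle also expresses, was the gene higher in heart (1.73 ± 0.10). Hba-a1, alpha-globin, was 14.76, 14.51 and 14.66 in heart and sat at the top of the normalised scale on all 4 bone arrays (14.90), so its difference of -0.25 is limited by that ceiling (0.37 with the authors' normalised intensities); it was named after its values were seen. The summed level of the red cell list was 30276 to 36054 on heart arrays and 108683 to 119067 on bone arrays. Of 20 heme and iron genes, 15 were lower and 1 higher in heart. Bach1, the heme-sensing repressor, was at least 11.6-fold lower, and Fech, which inserts the iron, was 5.20, 5.69 and 5.83 in heart, against 9.64, 9.56, 9.72 and 8.94 in bone. That Fech difference of -3.89 was -1.10 and -3.99 by its other probes, and the first of these stood for the gene when detection was required in both tissues. Slc25a39, a mitochondrial carrier, was the gene higher in heart (0.35 ± 0.09), and its call was lost with median scaling (0.15, limma adjusted p = 0.238).

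Platelet-lineage genes were lower in heart in 15 of 16 cases, with none higher and a median of -4.68 (-4.38 at bounds). Ppbp, a platelet chemokine, was 5.81, 5.74 and 5.07 in heart, against 13.13, 13.17, 13.34 and 13.28 in bone, and Gp5, a subunit of the von Willebrand factor receptor, was at least 69.5-fold lower in heart. Among 15 B-lineage genes, 12 were lower; Vpreb3 and Vpreb1, parts of the pre-B cell receptor complex, were at least 32.7-fold lower and lower by 4.56 ± 0.10, and Fcrla was at least 31.1-fold lower. The 1 higher in heart was Myl4, an atrial light chain listed for early B cells as well as for cardiomyocytes, at 14.61, 14.62 and 14.11 in heart, against 10.52, 10.15, 10.34 and 10.25 in bone. T and NK cell genes were lower in 8 of 13 cases and higher in none, with Cd3d at least 15.3-fold lower. Of 15 macrophage genes, 9 were lower and 1 higher. Lyz2, lysozyme, was lower by 4.22 ± 0.14 and the adhesion gene Vcam1 by 3.39 ± 0.15, while Lyve1, of resident macrophages and lymphatic vessels, was higher (1.19 ± 0.14).

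Transcription factor genes of marrow and bone were lower in heart in 21 of 27 cases and higher in 3. Nfe2, of red cells and platelets, had 4.60, 4.83 and 4.47 in heart, against 11.99, 11.75, 11.69 and 11.61 in bone, at least 93-fold lower. Cebpe, of granulocytes, was at least 34.2-fold lower and Gfi1b, of red cell and platelet precursors, at least 27.9-fold lower. The 3 higher in heart were Msx1, Twist2 and Twist1, by 1.47, 1.14 and 0.40, the last at -0.10 with median scaling and past no threshold without heart array 1 or 2 (0.35 and 0.28, limma adjusted p = 0.0813 and 0.121). Of 13 blood progenitor genes, 7 were lower (53.8%) and 4 higher (30.8%) in heart, with a median of -0.50. That median was -0.16 with undetected genes at their bound. With the authors' normalised intensities it was 0.37, with 6 lower and 5 higher, so the sign of this median is unsettled. Gfi1, a repressor of progenitors and granulocytes, was at least 15.1-fold lower, and Lmo2, a transcription cofactor of blood progenitors and endothelium, was lower by 2.19 ± 0.10. Cd34 and Meis1, which endothelium and heart muscle also express, were higher by 2.18 ± 0.13 and 1.91 ± 0.09.

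Cell division genes were lower in heart in all 36 cases measured, 34 of them past the 2-fold test, with a median of -3.92. Nusap1, a spindle protein, had log2 levels of 5.76, 5.68 and 5.78 in heart, against 11.87, 11.93, 11.73 and 11.66 in bone, though its other probes gave -0.67 and -2.01. Birc5, survivin, was 5.82, 6.04 and 5.40 in heart, against 11.91, 11.78, 11.78 and 11.65 in bone, with other probes at -5.77 and -6.16. Top2a, the topoisomerase of dividing cells, was 5.00, 5.30 and 4.95 in heart, against 11.02, 10.86, 10.94 and 10.87 in bone, and Cdc6, which loads the replication helicase, was at least 31.6-fold lower in heart by its brightest probe, with its other probe at -1.75. Replication-linked histone genes reached the top 12 lower in heart: H2ac22, at least 336-fold, and H2ac10, at -9.01 ± 0.13, belong to a family of near-identical copies that a probe may not separate. Ctse, an aspartic protease of red cell precursors, was at least 269-fold lower. The summed linear level of the division list was 5798 to 6470 on heart arrays and 61428 to 71864 on bone arrays.

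Genes of MHC class II presentation were lower in heart in all 11 cases, with a median of -1.65. H2-Ea was undetected in heart and at least 9.08-fold lower, and Cd74, the invariant chain, was 9.72, 9.26 and 9.18 in heart, against 11.40, 10.96, 11.69 and 11.64 in bone. Cytosolic ribosomal protein genes were lower in heart in 40 of 46 cases and higher in 4, with a median of -0.73. Median scaling and cyclic loess each left 37 lower, with medians of -0.51 and -0.50. The authors' normalised intensities, however, gave 17 lower and 11 higher, with a median of -0.00. Rpl3, of the large subunit, was lower by 1.87 ± 0.08, while Rpl3l, its muscle-restricted relative, was higher by 1.29 ± 0.10.

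Skeletal muscle genes also marked the bone samples. Of 23 measured, 18 were lower and 3 higher in heart, with a median of -6.16 (-5.63 at bounds), and 9 had every probe undetected in heart; Myod1 did not pass the filter. Tnnc2, troponin C of fast fibres, had log2 levels of 4.83, 5.00 and 4.76 in heart, against 14.42, 14.58, 14.55 and 14.58 in bone, at least 635-fold lower in heart. Pvalb, the calcium buffer parvalbumin, had 5.05, 4.87 and 5.96 in heart, against 14.53, 14.69, 14.64 and 14.58 in bone, and Mylpf, the fast regulatory light chain, had 5.87, 5.45 and 5.58 in heart, against 14.15, 14.38, 14.43 and 14.43 in bone. Tnnt3 and Tnni2, fast troponins T and I, were lower in heart by at least 301-fold and by 7.72 ± 0.09 on the log2 scale. The summed linear level of the list was 47699 to 49209 on heart arrays and 196844 to 220553 on bone arrays, and its part in the other differences was not tested.

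Genes that heart shares with slow muscle fibres behaved otherwise in bone. Myl2, the ventricular and slow regulatory light chain, was at the ceiling of 14.90 in all 3 hearts, against 12.63, 12.66, 11.15 and 11.34 in bone. Tnnc1, troponin C of heart and slow fibres, was 14.73, 14.70 and 14.76 in heart, against 10.23, 11.04, 9.05 and 9.53 in bone, and Atp2a2, the calcium pump of the same fibres, was 14.64, 14.66 and 14.68 in heart, against 11.94, 12.05, 10.77 and 11.23 in bone. Tnnt1, slow troponin T, was 10.59, 10.71 and 10.57 in heart and 10.89, 10.89, 9.42 and 10.00 in bone and did not pass the test. Each was higher on bone arrays 1 and 2 than on 3 and 4. The fast genes Tnnc2, Pvalb and Mylpf lay at 14.15 to 14.69 in bone, near the ceiling of 14.90, so no order among bones is read from them. The summed level of the cardiomyocyte list was 336970 to 351885 on heart arrays and 53129, 49626, 33705 and 39852 on bone arrays 1 to 4. That list holds Myl2 and Tnnc1, so its order among bones is not a separate observation. The 3 higher in heart were Pygm, Eno3 and Ckm, muscle enzymes that the heart also uses, by 1.05, 0.82 and 0.31; the Ckm call was lost without heart array 1, heart array 3 or bone array 1 (limma adjusted p = 0.0706, 0.0565 and 0.0583).

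Fat cell genes were split. Car3, a carbonic anhydrase of fat and slow muscle, was undetected in heart and at least 62.3-fold lower there, and Adipoq, adiponectin, was 6.85, 7.29 and 6.34 in heart, against 10.09, 10.62, 10.63 and 10.49 in bone. Cidea, a lipid droplet protein, went the other way, at 10.04, 10.38 and 9.93 in heart, against 6.21, 6.01, 5.05 and 5.35 in bone, and Lpl, lipoprotein lipase, was higher by 2.01 ± 0.07. Scd1 and Thrsp, genes of fatty acid synthesis, varied among hearts, with heart array 2 the highest for both: Scd1 was 9.14, 10.51 and 8.52 in heart, against 10.66, 11.84, 11.54 and 11.60 in bone, and Thrsp was 7.13, 8.43 and 6.79 in heart, against 4.98, 5.22, 5.34 and 5.08 in bone.

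Signalling and positional genes gave smaller contrasts. In the endothelin pathway, where endothelin 1 made by the Ece1 protease acts on receptors coupled to Gq and G12 proteins, Ednra itself was not measured here. Of 17 pathway genes measured, 11 were higher (64.7%) and 6 lower (35.3%) in heart, with a median of 0.69. Over all genes these shares were 44.2% and 38.3%. Ece1 itself had log2 levels of 10.25, 10.17 and 9.98 in heart, against 6.97, 7.39, 6.46 and 6.96 in bone, but its other probe gave -0.58. Gna13 and Gnaq, G protein subunits of the pathway, were lower in heart by 4.95 ± 0.17 and 2.65 ± 0.23, and Gnaq at -0.38 by another probe. Sfrp1 and Wnt5a, a Wnt antagonist and a Wnt ligand, were higher in heart by 3.52 ± 0.12 and 2.68 ± 0.15, and Wif1 and Bmp3, an antagonist and a growth factor made by bone cells, were lower by 2.46 ± 0.12 and 2.89 ± 0.19. Of 18 Hox genes and limb factors measured, 10 were lower and 3 higher in heart. Hoxc6 was 4.52, 4.59 and 4.84 in heart, against 8.33, 8.48, 7.94 and 8.41 in bone, at least 8.39-fold lower, and Hoxc9 was at least 5.74-fold lower; these set position along the body axis and in the limbs. The 3 higher were Hoxb2, Hoxa13 and Hoxc4, by 0.79, 0.43 and 0.43. Hoxa13 was at -0.03 with median scaling and lost its call with the authors' normalised intensities (limma adjusted p = 0.166), and Hoxc4 lost its call with median scaling and with cyclic loess (limma adjusted p = 0.0742 and 0.0791).

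**Figure D4:**
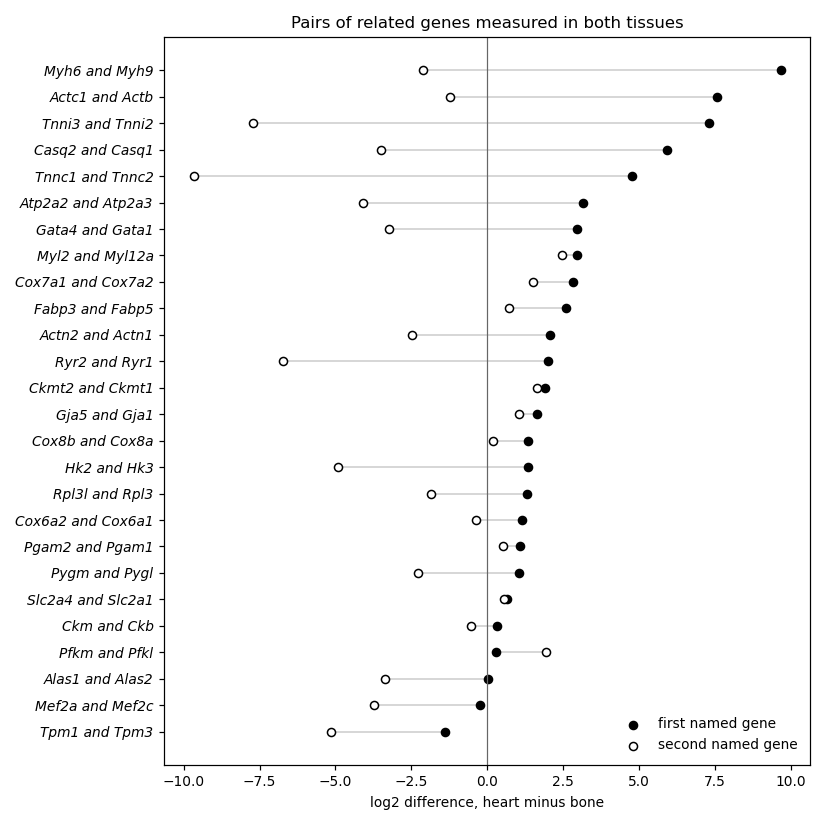
Log2 difference (heart minus bone) of both genes of 26 pairs of related genes, with the first named gene as filled circles and the second as open circles. Some second genes, such as Tnni2 and Casq1, are skeletal muscle forms. Genes undetected in a tissue are drawn at their fitted value. The troponin I pair stands at 7.30 and -7.72, and Tnnc1 of the troponin C pair at 4.77, with Tnnc2 undetected in heart.

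Some pairs of related genes parted between the tissues and others did not. Of 37 pairs written down, 26 had both genes measured, and in 14 the genes differed in opposite directions, both past the test by their brightest probes. The first gene was higher in heart in 23 of the 26 pairs and the second lower in 17. Over all genes 44.2% were higher and 38.3% lower. Troponin C gave Tnnc1 at 4.77, against Tnnc2 at least 635-fold lower in heart, and troponin I gave Tnni3 at 7.30 and Tnni2 at -7.72. The ryanodine receptors, which release stored calcium, gave Ryr2 at least 3.05-fold higher in heart and Ryr1 at -6.73 by its brightest probe, which was undetected in heart, with its other probes at -0.42, -6.43 and -5.09. Alpha-actinins gave Actn2, of the Z-disc, at 2.06 and Actn1, of other cells, at -2.48, and the glycogen phosphorylases gave Pygm at 1.05 and Pygl, of liver and blood cells, at -2.30. Gata4 of the heart and Gata1 of red cells and platelets were at least 6.08-fold higher and at least 6.52-fold lower in heart, and the hexokinases Hk2 and Hk3 stood at 1.35 and -4.92. Tropomyosins were among the pairs that did not part. Tpm1 and Tpm3 were both lower in heart, by 1.40 ± 0.06 and 5.16 ± 0.22, and the other probes of Tpm3 gave -0.84 to -1.25.

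Genes in common use as references differed between the tissues, as 82.5% of all genes did. Of 10 measured, 9 were lower (90%) and 1 higher (10%) in heart by their brightest probes, beside 38.3% and 44.2% of all genes. The 9 include Actb, whose probes disagreed. Tubb5, Gusb and B2m were lower in heart by 2.69 ± 0.08, 1.23 ± 0.08 and 1.09 ± 0.09, and Gapdh was higher by 0.50 ± 0.07.

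**Figure D5:**
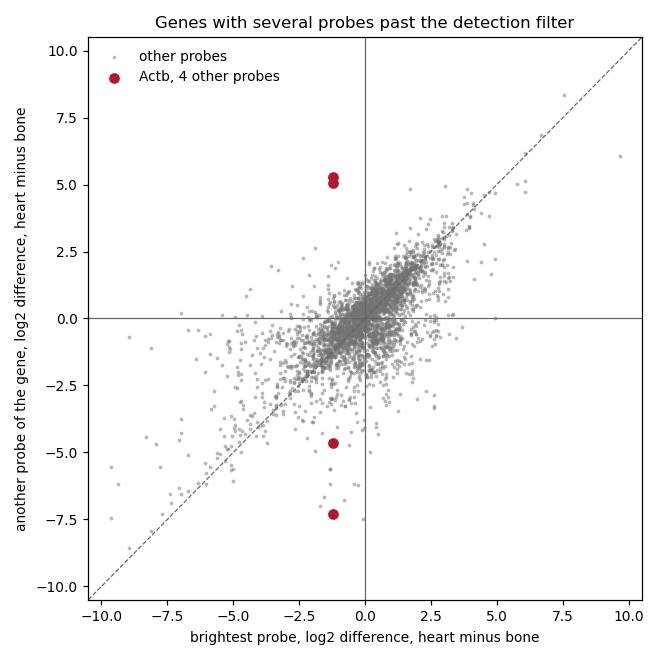
For genes with more than 1 probe past the detection filter, the log2 difference (heart minus bone) of the brightest probe on the horizontal axis and of each other probe on the vertical axis; the dashed line marks equality and the 4 other probes of Actb are enlarged. In 72.3% of the genes all probes lie on the same side of 0, while Actb has probes at 5.29, 5.06, -4.63 and -7.31 where its brightest gave -1.23.

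Probes of a gene did not always move alike. Of 2478 genes with several probes, 1791 (72.3%) had all of them on the same side of 0, and of 855 of those past the 2-fold test, 738 (86.3%) did. A probe was called past 2-fold in the direction opposite to the brightest in 27 of the 855. Actb, cytoplasmic beta-actin, was such a gene: its brightest probe gave 13.21, 12.97 and 13.04 in heart, against 14.39, 14.41, 14.08 and 14.35 in bone, while 4 other probes gave differences of 5.29, 5.06, -4.63 and -7.31. Its direction is therefore unsettled, although Actb counts as lower in heart among the reference genes and in the actin pair by its brightest probe. For other genes named here a further probe gave a smaller difference of the same sign: -2.24 for Atp2a3, -2.69 for Cebpe, 1.5 for Etfdh, -1.47 for Fcrla, -1.74 for Gata1, -0.28 for Gusb, -6.20 for Ltf, -0.79 for Lyz2, -5.53 for Mpo, -4.42 for Trim10 and 2.22 for Upk3b. Fabp4, Eef1a1, Pgk1 and Myh7 did not pass the filter on any probe, and an undetected probe does not show an absent transcript.

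The same contrast in heterozygotes, 4 hearts against 4 bones on arrays none of which was used above, was computed as a repeat in other samples. Of 9800 genes measured there, 8175 (83.4%) differed, 4482 (45.7%) higher and 3693 (37.7%) lower in heart, and 3214 (32.8%) passed the 2-fold test, 1686 (17.2%) higher and 1528 (15.6%) lower. In the 9456 genes measured in both genotypes, 3205 wild-type and 3208 heterozygous genes passed the 2-fold test, and 2859 did so in both in the same direction, 89.2% of the wild-type genes and 89.12% of the heterozygous ones, with 0 in opposite directions. By the same probes, the difference was 7.35 in heterozygotes and 7.55 in wild type for Actc1, 9.69 and 9.66 for Myh6, -8.63 and -8.72 for Mylpf, and -7.82 and -8.52 for Slc4a1, in the same order of genotypes. Other genes were farther apart between the genotypes, as S100a9 at -6.72 in heterozygotes and -8.26 in wild type. One mouse number stands in the labels both under wild-type bone 3 and under heterozygous bone 4, so these arrays may share an animal.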

How the data were processed

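Total RNA was extracted with Trizol, cleaned on RNeasy columns and turned into biotinylated cRNA (MessageAmp), per the labels' protocols, and GenomeStudio 2011.1 is named in the submitters' processing notes. The authors deposited raw probe intensities and, in a second table, background-subtracted normalised intensities with a detection p-value per probe and array. The values show this to be the reverse of what had been planned for, so raw intensities came from the first set and the authors' normalised intensities served as an alternative. The authors' scaling method is unknown here.

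Raw intensities of the 7 arrays were background-corrected by normexp using the deposited detection p-values (offset 16), quantile-normalised together and put on a log2 scale with limma 3.58.1 in R 4.3.3. A probe was kept with a detection p under 0.05 on at least 3 arrays of either tissue, which left 13827 of 25697 probes. Of all probes, 23978 carry 1 gene symbol and 1719 none in the platform annotation, and 23962 matched the RefSeq gene table by Entrez number. The brightest kept probe stood for a gene. Groups were compared by limma's moderated test with a variance trend, and by treat at a log2 difference of 1, with p-values adjusted by Benjamini and Hochberg's method; the procedure was tested on simulated data. Array number limits the precision. Errors written ± are standard errors.

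The members and gene lists were chosen with earlier results of these data known. Genes were named by rule. It took the 12 widest per direction, up to 6 members per list and up to 3 of the other sign. Defining genes that did not pass and both genes of each pair were also taken. Hba-a1 lies outside the rule. So do Acaa2 and Acadm, which are named for their disagreeing probes and are not among the 187 genes checked below. A further part of the rule, the 5 genes with the closest levels, is not reported. Replicate numbers did not pair hearts with bones: deviations of same-numbered arrays correlated at -0.0087, -0.058 and -0.077. Alternatives were other background corrections, scalings, detection filters, probe summaries, variance models, a replicate block, each array left out, and the 4th heart array added.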

Additional observations from a re-analysis of the deposited data

Results flagged for a closer look

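Among the 4 bone arrays, 11 of the 187 genes named (5.88%) had 1 array farther from the others than the critical value of Dixon's test allows, and chance flags about 1 in 20. Bone array 1 stood low for 5 of them. Col2a1 had a log2 level of 11.37 there and 12.35 to 12.54 on the other 3 bone arrays. Dpt was at 6.80 beside 7.85 to 8.04, and Phex at 7.94 beside 8.15 to 8.18. Mylpf was at 14.15 beside 14.38 to 14.43, near the ceiling of the scale. Cma1, undetected in bone by this probe, was at 4.54 beside 4.77 to 4.81. No order among bones is read from Mylpf or Cma1. Bone array 2 was high for Col1a2, at 9.40 beside 8.77 to 8.85, and low for Pygl, at 11.90 beside 12.19 to 12.21. Bone array 3 was low for Actb, at 14.08 beside 14.35 to 14.41, and for Sptb, at 8.52 beside 8.84 to 8.90, and high for Twist2, at 5.67 beside 5.06 to 5.15. Bone array 4 was high for Wnt5a, at 6.02 beside 5.46 to 5.56. The hearts, 3 arrays, were too few for this check.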

How the results depend on the processing

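Of 4208 values of the 187 named genes under 23 alternatives, 4167 kept their direction and side of the threshold, 36 kept their direction and lost the call, and 5 changed sign: Cox6a1 (0.23) and Hba-a1 (0.37) with the authors' normalised intensities, and Hoxa13 (-0.029), Smpd3 (-0.016) and Twist1 (-0.10) with median scaling. Without background correction, 1778 genes passed the 2-fold test, 876 higher and 902 lower in heart, against 3205. With detection required on every array of both tissues, which removes genes seen in 1 tissue only, 3622 genes were higher and 2425 lower in heart, 1355 and 892 past the 2-fold test, and with every probe tested separately 5864 probes were higher and 5534 lower. With the authors' normalised intensities 4850 genes were higher and 3016 lower. Leaving out each array in turn gave 7712 to 7839 differing genes and 3039 to 3154 past the 2-fold test. With the replicate block, 7661 genes differed and 3094 passed the 2-fold test, and of the named genes Twist1 alone lost its call (adjusted p = 0.0615). Adding the 4th heart array gave 6763 and 2509, and Cdh5 (1.75), Itga7 (2.10), Angptl4, Ckm, Clcn7, Mcpt4, Slc25a39 and Smpd3 then missed the threshold. For Pdlim5, requiring detection in both tissues left another probe, at -0.021. Without heterozygous bone 4, 8048 genes differed in heterozygotes. Using the mean of a gene's probes, an alternative chosen after seeing the data, gave 7910 and 3098. Probes near background limit the low levels.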
